A study of Rattus norvegicus with 4 samples.

Results

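The respiratory chain genes of circulating blood cells were described in 4 single-cell RNA libraries of rat blood, in 106 of the 25340 genes counted. Members were chosen by symbol alone. The 93 nuclear members have symbols starting with Nduf, Uqcr, Cox4, Cox5, Cox6, Cox7, Cox8 or Atp5, and the 13 mitochondrial members have symbols starting with Mt-. Grouped by symbol, the nuclear members comprised 38 gene models of complex I, 7 complex I assembly factors, 9 gene models of complex III, 22 of complex IV and 17 of complex V. Symbols do not settle whether each is a subunit, and Atp5s, for example, has the RefSeq symbol Dmac2l. The mitochondrial members comprised 7 subunits of complex I, 1 of complex III, 3 of complex IV and 2 of complex V.

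The study addressed UC-MSCs (the title's term; MSCs are mesenchymal stromal cells) as a treatment of traumatic spinal cord injury (SCI) in rats, given intrathecally (into the fluid around the cord) or intravenously. Per the design text, 40 rats were assigned to 4 groups of 10 and injured by Allen's method, a weight drop, and the wording of that text places the sham group among the injured rats. The library labelled Sham is the control and the library labelled SCI received no cells. The library labelled MSC-i.t came from rats given 10000000 cells per kg intrathecally, and MSC-i.v from rats given 30000000 cells per kg intravenously, at 72 h and again at 7 days after injury. Strain, age, when blood was drawn and how many rats fed a library are not given in the sources used here, and the SCI data set carries another time tag in its name than the other 3. Each group had 1 library, so no value has a replicate, no test was possible, and all intervals below are exact 95% intervals that cover counting error only. Differences between libraries, rats, draw times and treatments cannot be told apart.

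The respiratory chain passes electrons from NADH and succinate to oxygen. Complex I takes electrons from NADH, complex III passes them from ubiquinol to cytochrome c, complex IV hands them to oxygen, and complex V (ATP synthase) uses the resulting proton gradient to make ATP. A small set of core subunits is encoded and transcribed in the mitochondrion as polycistronic RNA, and all other subunits are encoded in the nucleus and imported, so every complex here except complex II is built from both genomes. Nuclear respiratory factor 1 (NRF1), ETS factors including NRF2/GABP, YY1 and SP factors are known regulators of many of the nuclear genes.

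Promoter sequence is shown for 4 nuclear members whose values carried much of what follows, chosen after their values were seen. Atp5i (RefSeq Atp5me) encodes subunit e of ATP synthase, Ndufa4 a subunit of complex IV despite its name, Ndufaf7 a methyltransferase that acts in complex I assembly, and Cox5a a subunit of complex IV. Each run holds the 250 bases before the RefSeq start on the rat GRCr8 assembly, read 5′ to 3′ along the gene. Capitals mark matches, on either strand, to the 10-base NRF1 palindrome, or to ETS (CCGGAAG), YY1 (AAGATGGC) or SP (GGGCGG) letters.
Atp5i, chr14:1464610-1464859, plus strand: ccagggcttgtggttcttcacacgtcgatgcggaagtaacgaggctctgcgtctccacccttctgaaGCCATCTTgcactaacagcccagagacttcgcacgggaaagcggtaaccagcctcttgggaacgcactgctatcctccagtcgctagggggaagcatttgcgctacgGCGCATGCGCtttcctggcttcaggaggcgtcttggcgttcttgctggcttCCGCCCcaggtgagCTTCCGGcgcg
Ndufa4, chr4:40975560-40975809, minus strand: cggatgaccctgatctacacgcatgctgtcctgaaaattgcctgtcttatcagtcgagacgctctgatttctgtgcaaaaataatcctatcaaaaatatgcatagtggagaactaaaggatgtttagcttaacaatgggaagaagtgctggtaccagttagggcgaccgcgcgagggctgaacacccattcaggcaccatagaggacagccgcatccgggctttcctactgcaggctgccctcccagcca
Ndufaf7, chr6:21871966-21872215, minus strand: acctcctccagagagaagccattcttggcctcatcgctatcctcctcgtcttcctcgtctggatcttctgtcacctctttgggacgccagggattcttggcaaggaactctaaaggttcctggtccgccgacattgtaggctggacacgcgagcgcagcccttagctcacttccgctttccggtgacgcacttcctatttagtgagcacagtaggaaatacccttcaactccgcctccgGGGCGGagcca
Cox5a, chr8:66818034-66818283, plus strand: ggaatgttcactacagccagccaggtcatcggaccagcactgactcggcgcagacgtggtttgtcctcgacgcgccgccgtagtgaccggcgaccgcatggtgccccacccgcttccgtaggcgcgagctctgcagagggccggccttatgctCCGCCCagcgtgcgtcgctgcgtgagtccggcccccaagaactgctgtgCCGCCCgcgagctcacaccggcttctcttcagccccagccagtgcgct
The Atp5i window held all 4 motifs, the Cox5a and Ndufaf7 windows held SP letters, and the Ndufa4 window held none of them. Of the 90 nuclear member symbols, 77 had a promoter in the RefSeq table. NRF1 letters stood in 6 of them (7.79%: Atp5g2, Atp5i, Atp5o, Ndufa11, Ndufaf4 and Ndufaf5), against 233 of 27457 promoters of the same length (0.849%). ETS letters stood in 18 (23.4%), against 7.74% of all promoters. YY1 letters stood in 2 (2.60%: Atp5i and Atp5j), against 1.69%, and SP letters in 29 (37.7%), against 32.4%. A match describes the letters only.

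Barcodes with at least 500 unique molecular identifiers (UMIs, counted RNA molecules) and 200 genes were kept, 8527 (SCI) to 16998 (MSC-i.v) per library, with a median of 3764 to 5719 UMIs. Pairs of libraries shared 28 to 51 kept barcodes, against 13.3 to 28.4 if drawn independently. Barcodes were gated by marker UMIs into T, B, natural killer (NK), monocyte, platelet and erythroid classes. Marker lists outside the gates separated most classes, but the T list did not separate NK-gated from T-gated cells. Of its 8 genes 5 were in the gene list. The summed T list stood at 984.7 to 1037.1 CPM (UMIs of a gene per 1000000 UMIs of the class) in T-gated cells. It stood at 30.5 to 47.5 CPM in monocyte-gated cells. In NK-gated cells, whose gate asks for no Cd3 UMI, it was higher than in T-gated cells, at 1219 to 1379.4 CPM. The NK list did separate them, at 6167 to 6969 CPM in NK-gated and 669 to 722 CPM in T-gated cells. The monocyte list stood at 10204 to 11055 CPM in monocyte-gated cells. Its make-up differed in SCI, where Cebpb gave 2172 CPM of the sum of 10902 CPM, beside 88.2 to 119 CPM in the other libraries. Fcnb and Vcan of that list were lowest in SCI, at 1292 and 243 CPM, beside 1928 to 2705 and 355 to 445 CPM. The NK-gated and monocyte-gated classes each carried a high sum of the other's list. In Sham the monocyte list stood at 4755 CPM in NK-gated cells and the NK list at 3458 CPM in monocyte-gated cells. Which genes made these sums was not tested. Every series of 4 values below is in the order Sham, SCI, intrathecal (MSC-i.t), intravenous (MSC-i.v). T-gated cells numbered 4993, 5513, 6891 and 8008, and monocyte-gated cells numbered 841, 320, 457 and 1261.

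The SCI library stood apart from the other 3 in genes outside the respiratory chain. In monocyte-gated cells the transcription factor gene Cebpb stood at 92.2, 2172, 119 and 88.2 CPM, the granulocyte and monocyte gene S100a8 at 1384, 171, 750 and 1338 CPM, and the summed neutrophil list (6 genes) at 2722.8, 498.8, 1408.5 and 3140.3 CPM. Dapk3, a kinase gene, was high in SCI in T-gated cells also, at 3.19, 64.4, 3.18 and 3.40 CPM. These genes were chosen after their values were seen, and their part in the results below was not tested. The set levels of MSC-i.t and MSC-i.v are therefore given against SCI and also against Sham, which leaves SCI out.

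Each nuclear-set UMI was accompanied by more mitochondrial UMIs in SCI than in Sham in all 4 leukocyte classes. This ratio does not depend on the total that CPM is scaled to. In T-gated cells it was 2.06 (interval 2.05 to 2.07), 2.40 (2.40 to 2.41), 2.23 and 2.24. In monocyte-gated cells it was 1.64 (1.63 to 1.65), 2.39 (2.35 to 2.42), 1.77 and 1.78. SCI was the highest and Sham the lowest library in both classes, and the difference between them was larger in monocyte-gated cells. In NK-gated cells the ratio was 1.82 (1.79 to 1.85), 2.04 (1.99 to 2.08), 1.85 (1.81 to 1.89) and 2.01 (1.97 to 2.05), where the intervals of SCI and MSC-i.v overlapped and those of Sham and MSC-i.t overlapped. In B-gated cells it was 2.64, 2.94, 2.91 and 3.03, and there MSC-i.v was the highest library. Barcodes of only 10 to 100 UMIs had 1.08, 1.18, 0.918 and 0.728, below every leukocyte class. Whether those barcodes hold mostly free RNA was not tested.

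**Figure D1:**
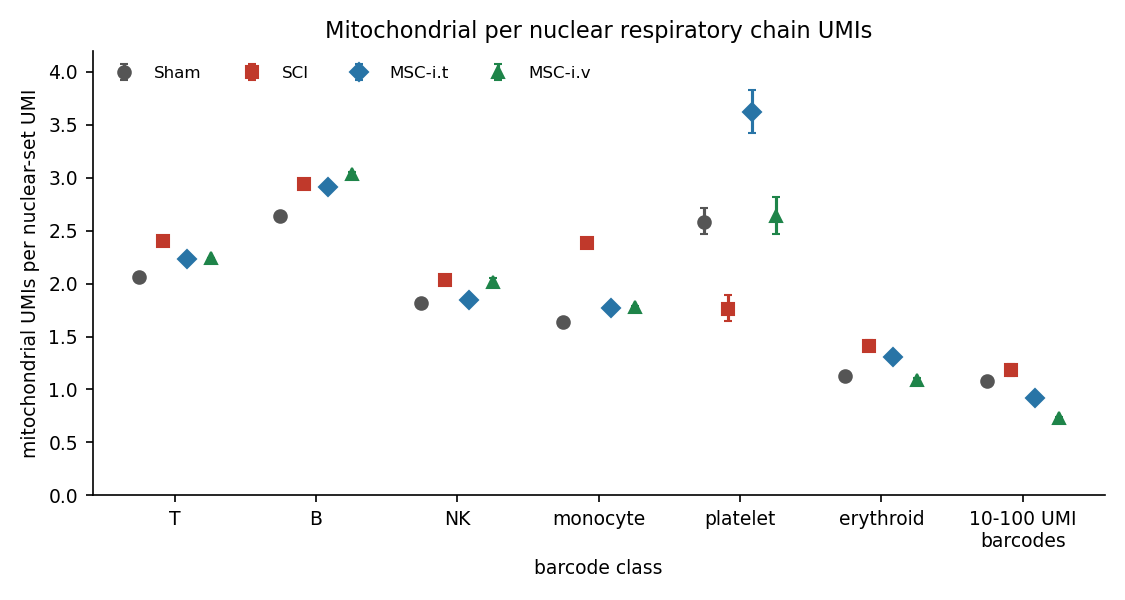
Mitochondrial UMIs per nuclear respiratory chain UMI (vertical axis) by marker-gated class (horizontal axis) in the 4 libraries; bars are 95% counting intervals. SCI lies above Sham in T-, B-, NK- and monocyte-gated cells, most in monocyte-gated cells (2.39 against 1.64), and below Sham in platelet-gated barcodes (1.76 against 2.59).

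SCI was the highest and Sham the lowest library inside T subsets and inside every complex of T-gated and monocyte-gated cells, while the order of the treated libraries varied. In B-gated cells SCI was not the highest library in any complex. In NK-gated cells complex IV stood at 3.07, 3.28, 2.96 and 3.33, highest in MSC-i.v. CD4 T cells had 2.09, 2.44, 2.28 and 2.33, CD8 T cells 1.99, 2.34, 2.18 and 2.18, and cycling T cells 1.79, 2.08, 1.997 and 1.82 mitochondrial UMIs per nuclear-set UMI. In T-gated cells complex I alone stood at 2.08, 2.52, 2.26 and 2.25, and complex V at 0.886, 1.063, 1.031 and 0.959. In monocyte-gated cells complex I stood at 1.356, 2.229, 1.509 and 1.509, and complex V at 0.714, 1.148, 0.854 and 0.805. The monocyte-gated cells were also split by Fcnb, Vcan and Fn1, genes of classical monocytes, after values were seen. Cells with at least 3 UMIs of these genes had 1.59, 2.32, 1.90 and 1.76, and cells with 0 UMIs had 1.76, 2.45, 1.66 and 1.76. SCI was the highest library on either side of that split, but MSC-i.t was the lowest among cells with 0 UMIs.

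Nuclear members of the T-gated cells were slightly lower in SCI than in Sham. The nuclear set summed to 20418.8, 18252.7, 19796.4 and 19764.4 CPM, lowest in SCI, with a log2 ratio of SCI over Sham of -0.16 (-0.17 to -0.16). The mitochondrial set summed to 42035.7, 43894.4, 44130.6 and 44221.4 CPM, lowest in Sham, with a log2 ratio of 0.06. That ratio was 0.039 as a mean of cells' shares and 0.023 with mitochondrial, hemoglobin and ribosomal protein genes left out of the total. A member was called lower at a CPM ratio of at most 0.8 and higher at the inverse of that ratio or more, where both libraries together held at least 50 UMIs. Of 80 nuclear members counted, 2 were higher and 5 lower in SCI, beside 21.4% of all genes higher and 5.77% lower. Below 0 on the log2 scale were 62 of the 80, with a median of -0.13, beside 35.6% of all genes with a median of 0.08. The median of all genes thus lay above 0 while that of the members lay below it.

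By complex, all 14 counted nuclear members grouped with complex IV had a ratio below 0 in T-gated cells, from -0.31 to -0.03, though none was called lower. Of members grouped with complex I 28 of 34 were below 0, with complex III 6 of 9, and with complex V 11 of 16. Atp5i, subunit e of ATP synthase, stood at 179.5, 125, 170.3 and 131 CPM and had the lowest ratio of SCI over Sham, -0.53 (-0.59 to -0.47). It was low in SCI and MSC-i.v and high in Sham and MSC-i.t. Uqcrq, a small complex III subunit, stood at 244, 189.9, 233 and 202 CPM, a log2 ratio of -0.36 (-0.41 to -0.31). Atp5e, the epsilon subunit of ATP synthase, stood at 1309.9, 1039, 1281 and 1129.8 CPM, with a ratio of -0.33 (-0.36 to -0.31). The complex I assembly factor Ndufaf6 was at 9.72, 7.29, 9.27 and 6.93 CPM, a ratio of -0.41 (-0.67 to -0.16). Atp5 genes, Ndufa4, Ndufa13 and Cox7a2 have processed copies elsewhere in rodent genomes, so reads may be split and their levels are uncertain.

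Some subunits differed little between SCI and Sham. Atp5a1 and Atp5b of the catalytic head of ATP synthase, and its gamma subunit Atp5c1, had log2 ratios of SCI over Sham of 0.12, 0.06 and 0.02 in T-gated cells. Atp5b stood at 398, 416, 393 and 398 CPM, close together in all libraries. The complex III core proteins Uqcrc1 and Uqcrc2 had ratios of 0.10 and 0.03, and the Rieske iron-sulfur subunit Uqcrfs1 0.05. Cox4i1, the main regulatory subunit of complex IV, stood at 1108, 1084, 1061 and 1137 CPM, a ratio of -0.03. These subunits were picked after the values were seen. The highest ratios were those of Atp5s (coupling factor B), 1.54, 2.23, 1.85 and 1.64 CPM with 0.53 (-0.03 to 1.12), and of the complex I accessory subunit Ndufc1, 11.6, 15.3, 12.6 and 12.5 CPM with 0.39 (0.19 to 0.60). Next came the assembly factor Ndufaf1 at 4.02, 4.83, 4.07 and 4.16 CPM, 0.27 (-0.09 to 0.63). Ndufs1, an iron-sulfur subunit of complex I, followed at 8.75, 10.5, 7.28 and 8.26 CPM, 0.26 (0.02 to 0.50).

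Monocyte-gated cells showed the wider gap between the genomes. The nuclear set summed to 22889.4, 18884.1, 22183.7 and 21559 CPM, lowest in SCI, with a log2 ratio of SCI over Sham of -0.28 (-0.30 to -0.26). The mitochondrial set summed to 37522.6, 45063.1, 39205.8 and 38324.9 CPM, highest in SCI, with a ratio of 0.26 (0.25 to 0.28). As a mean of cells' shares, which weights each cell equally, that ratio was 0.137. None of 75 counted nuclear members was called higher in SCI and 33 were called lower, beside 35.7% of all genes higher and 14.9% lower. At 1.5-fold 5 were lower. The members' median was -0.25, beside 0.16 for all genes, and 65 of 75 were below 0, beside 35.9% of all genes. Lower calls came from complex I (13 of 34 counted), complex III (5 of 9), complex IV (6 of 13), complex V (7 of 15) and complex I assembly factors (2 of 4).

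Several complex I and IV subunits led these lower values. Ndufs8, a core iron-sulfur subunit of complex I, stood at 151, 90.5, 140.5 and 132 CPM, a log2 ratio of -0.74 (-1.01 to -0.48). Ndufa4 stood at 253, 162, 234 and 227 CPM, a ratio of -0.65 (-0.85 to -0.45). Both were lowest in SCI, with the other 3 libraries close together. Uqcrh, the hinge protein of complex III, was at 824, 549, 744 and 779.8 CPM, a ratio of -0.59 (-0.69 to -0.48). Cox7b, a small complex IV subunit, was at 359, 238, 341 and 285 CPM, a ratio of -0.59, and Cox5a at 739, 530.4, 722 and 702 CPM, a ratio of -0.48. Ndufaf6 had the lowest ratio, -1.35 (-2.86 to -0.13), on 49 and 6 UMIs only. At the other end stood the assembly factor Ndufaf3 at 26.0, 31.7, 24.9 and 22.3 CPM, 0.28 (-0.22 to 0.77). The core protein Uqcrc1 was at 121, 143, 124 and 127 CPM, 0.24 (0.01 to 0.47). Ndufa10 and Ndufa3, accessory subunits of complex I, had ratios of 0.23 and 0.18. Atp5b, at 397, 382, 413 and 379.9 CPM, and Atp5a1, at 224, 211, 221 and 218 CPM, lay close together in all libraries here as well.

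**Figure D2:**
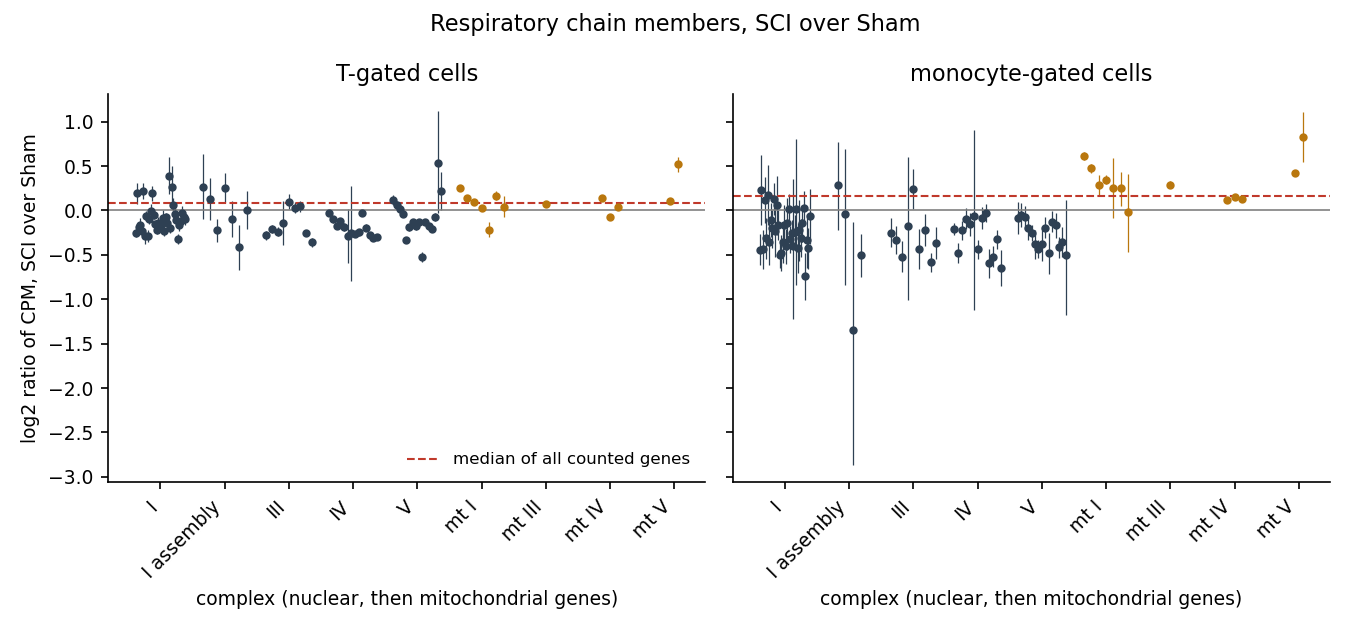
Log2 ratio of SCI over Sham (axis of values) of each counted member by complex in T-gated and monocyte-gated cells; bars are 95% counting intervals and the dashed line is the median of all counted genes. Most nuclear members lie below the dashed line (medians -0.13 and -0.25 against 0.08 and 0.16), while mitochondrial members lie mostly above 0.

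In B-gated cells the nuclear set differed about as much as in T-gated cells, and in NK-gated cells less. The nuclear set of B-gated cells summed to 19822, 17814, 19242 and 18430 CPM, a log2 ratio of SCI over Sham of -0.15, and 4 of 78 counted nuclear members were higher and 6 lower, beside 20.5% and 10.2% of all genes. Its mitochondrial set, at 52340, 52389, 56033 and 55904 CPM, had a ratio of 0.00, which became -0.04 when mitochondrial, hemoglobin and ribosomal protein genes were left out of the total. In NK-gated cells (122 to 238 cells per library) the nuclear ratio was -0.05 (-0.08 to -0.02) and the mitochondrial ratio 0.11 (0.090 to 0.14), larger than the 0.06 of T-gated cells. Of nuclear members 8 of 67 members were higher and 6 lower, beside 26.5% and 12.6% of all genes.

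Among the 13 mitochondrial genes the differences were uneven. In monocyte-gated cells 5 were called higher in SCI than in Sham, a share near the 35.7% of all genes. Above 0 were 12 of the 13, with a median of 0.28. Mt-nd1 and Mt-nd2, complex I subunits, stood at 2518, 3845, 2709 and 2882 CPM (0.61, interval 0.57 to 0.66) and at 2237, 3103, 2327 and 2401 CPM (0.47). Mt-atp6, which forms the proton path of complex V, stood at 4581, 6142, 5358 and 4916 CPM, a ratio of 0.42. The complex IV core subunits had lower ratios, with Mt-co2 at 0.15, Mt-cox3 at 0.13 and Mt-co1 at 0.12. In T-gated cells 1 of the 13 was called higher, beside 21.4% of all genes, and 11 were above 0. There Mt-nd1 stood at 3528, 4197, 3794 and 4070.5 CPM (0.25), while Mt-co2, at 9842, 9361, 9778 and 10325 CPM, had a ratio of -0.07.

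Mt-atp8, a small subunit of complex V whose gene overlaps Mt-atp6, differed most between libraries. T-gated cells held 64.8, 93.1, 67.0 and 43.0 CPM, B-gated cells 65.6, 86.7, 69.2 and 37.4 CPM, NK-gated cells 62.0, 104, 75.5 and 43.4 CPM, and monocyte-gated cells 61.1, 109, 74.3 and 50.8 CPM. In each of these classes SCI was the highest library and MSC-i.v the lowest. In T-gated cells the log2 ratio was 0.52 (0.44 to 0.61) for SCI over Sham and -1.11 (-1.21 to -1.02) for MSC-i.v over SCI. Barcodes of 10 to 100 UMIs had 75.9, 73.7, 78.3 and 34.1 CPM on 36, 11, 51 and 85 UMIs, and MSC-i.v was the lowest there also. Other mitochondrial RNAs of low count were also low in MSC-i.v. In T-gated cells Mt-nd6, encoded on the opposite strand to the rest, stood at 37.6, 38.7, 35.6 and 27.6 CPM, and Mt-nd4l, which overlaps Mt-nd4, at 85.2, 73.4, 81.3 and 67.3 CPM. The ratio of MSC-i.v over Sham was -0.45 for Mt-nd6 and -0.34 for Mt-nd4l. Reads from overlapping genes cannot be told apart with certainty, so these levels are uncertain.

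**Figure D3:**
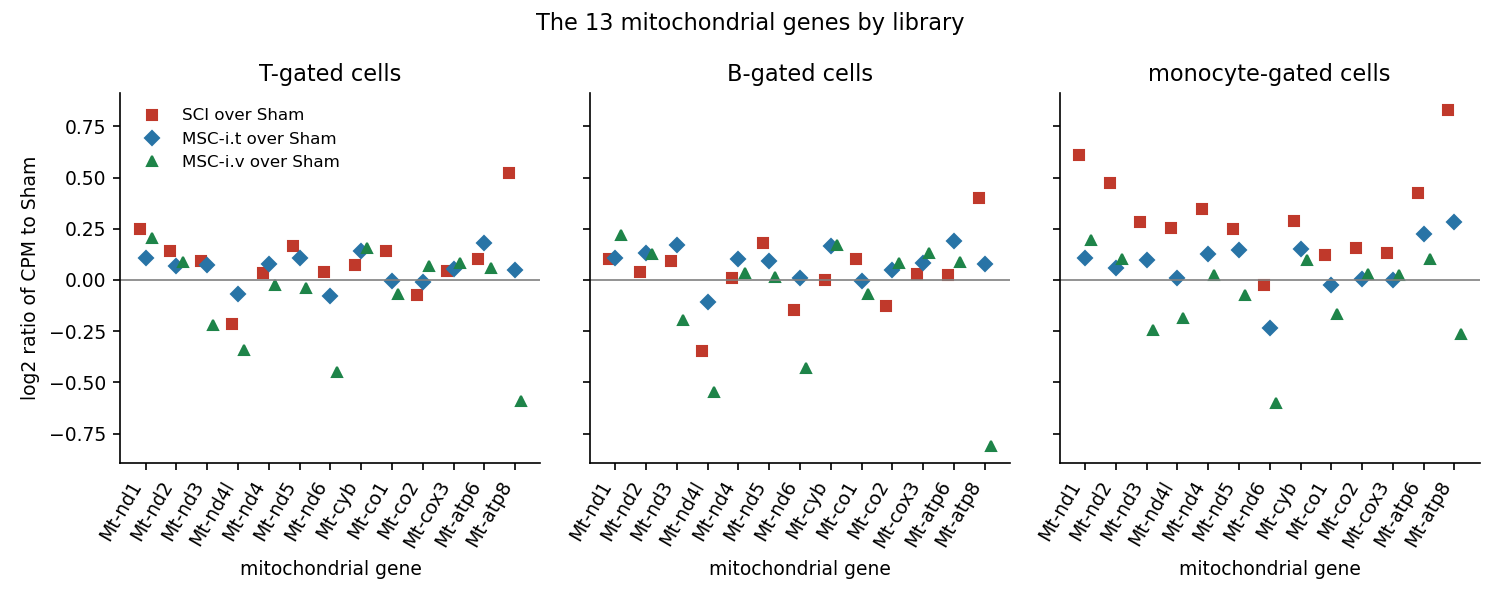
Log2 ratio to Sham (vertical axis) of the 13 mitochondrial genes (horizontal axis) in SCI and the cell-treated libraries, for T-, B- and monocyte-gated cells; points carry no error bars. Mt-atp8 is highest in SCI and lowest in MSC-i.v in each panel, and Mt-nd1 in SCI lies at 0.25 in T-gated and 0.61 in monocyte-gated cells.

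In T-gated and monocyte-gated cells both cell-treated libraries lay closer to Sham than to SCI in the nuclear set, which did not hold in every other class. The comparisons against SCI share that 1 library, and those against Sham share Sham, so they are not independent. In T-gated cells the nuclear log2 ratio was 0.12 for MSC-i.t over SCI and 0.11 for MSC-i.v over SCI, while against Sham it was -0.045 and -0.05. With mitochondrial, hemoglobin and ribosomal protein genes left out of the total, the ratios over SCI were 0.176 and 0.175. The mitochondrial set of T-gated cells did not follow. Its ratio was 0.0077 for MSC-i.t over SCI and 0.011 for MSC-i.v over SCI, beside 0.062 for SCI over Sham, and these small values moved under some settings. Of 81 nuclear members counted, 2 were higher and 1 lower in MSC-i.t than in SCI, beside 4.53% and 23.2% of all genes. Of 80, 1 was higher and 2 lower in MSC-i.v than in SCI, beside 4.71% and 26.4%. Against Sham, none of 80 was called in either direction in MSC-i.t, beside 3.75% and 8.42% of all genes, and in MSC-i.v 1 was higher and 2 lower, beside 5.19% and 9.02%.

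In monocyte-gated cells the nuclear ratio was 0.23 for MSC-i.t over SCI and 0.19 for MSC-i.v over SCI, and -0.045 and -0.09 against Sham. The mitochondrial ratio was -0.20 and -0.23 against SCI, and 0.06 and 0.03 against Sham. As a mean of cells' shares, the ratio of MSC-i.t over SCI was -0.116. Higher than in SCI were 24 of 71 counted nuclear members in MSC-i.t and 2 were lower, beside 13.1% and 31% of all genes. For MSC-i.v the counts were 18 higher and 3 lower of 75, beside 11.9% and 32.9%. At 1.5-fold 2 members were higher and 0 lower in each. Against Sham, 3 of 75 were higher and 2 lower in MSC-i.t, beside 11.9% and 9.69% of all genes, and 2 of 77 were higher and 6 lower in MSC-i.v, beside 10.2% and 10.1%.

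In B-gated cells the nuclear ratio was 0.11 for MSC-i.t over SCI, with 6 of 79 members higher and 3 lower, beside 8.91% and 21.2% of all genes. It was 0.049 for MSC-i.v over SCI, with 1 of 79 higher and 4 lower, beside 5.93% and 23.8%. Against Sham it was -0.043 for MSC-i.t and -0.11 for MSC-i.v, so that MSC-i.v lay closer to SCI. In NK-gated cells the ratio was 0.12 (0.088 to 0.16) for MSC-i.t over SCI and -0.019 (-0.053 to 0.015) for MSC-i.v over SCI. Against Sham it was 0.074 (0.041 to 0.11) and -0.068 (-0.100 to -0.037), and MSC-i.v again lay closer to SCI. Of NK-gated members 10 of 66 were higher and 3 lower in MSC-i.t, beside 12.8% and 25.7% of all genes, and 2 of 67 were higher and 6 lower in MSC-i.v, beside 9.41% and 27.1%.

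The treated libraries differed from each other in a few members. Atp5i in T-gated cells had a ratio of 0.45 (0.40 to 0.50) for MSC-i.t over SCI but 0.07 for MSC-i.v over SCI. In T-gated cells the next highest for MSC-i.t were Ndufaf6 (0.35), Cox8a, a small complex IV subunit at 502, 404, 498 and 441 CPM (0.30), and Atp5e (0.30). For MSC-i.v they were Uqcrb (the copy with identifier ENSRNOG00000032204), a complex III subunit with 9.42, 8.57, 9.32 and 12.7 CPM (0.57, interval 0.35 to 0.79), Uqcrh (0.25), the complex I accessory subunit Ndufb7 (0.25) and Ndufa4 (0.24). The symbol Uqcrb occurs more than once in the gene list, so that value is uncertain. Ndufs1 was lower than in SCI in both, at -0.53 and -0.34. In monocyte-gated cells Ndufs8 (0.63 and 0.54) and Ndufa4 (0.54 and 0.49) were higher than in SCI in both treated libraries, and Ndufaf3 (-0.35 and -0.50) and Ndufa3 (-0.22 and -0.32) were lower.

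For some members the blood cell classes differed by more than the libraries did. Classes were compared with T-gated cells per nuclear-set UMI, and a member was called past 1.5-fold in the same direction in all 4 libraries. Except for platelets, a gene was counted where the class and T-gated cells together held at least 50 UMIs in each library. Genes could thus be counted through T-gated cells alone, which favours lower calls, so these counts and shares only describe the classes. Monocyte-gated cells had 2 higher and 5 lower of 80 nuclear members, beside 23.2% and 21% of all genes. Ndufaf7, the assembly methyltransferase, stood at 161, 114, 127 and 136 CPM in monocyte-gated and at 11.7, 11.7, 12.7 and 11.1 CPM in T-gated cells, a log2 ratio of 3.62, 3.23, 3.16 and 3.50 per nuclear-set UMI. Cox5a was the other higher member (0.85, 0.59, 0.85 and 0.72). Ndufa4 was lower, by ratios of -1.66, -1.89, -1.68 and -1.72, as were Uqcrh (-0.91 to -0.69) and the assembly factors Ndufaf4 (-2.14 to -1.66) and Ndufaf2 (-1.70 to -1.05).

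Ndufa4 was low in NK-gated cells also. It stood there at 197, 147, 174 and 135 CPM, beside 713, 579, 669 and 683 CPM in T-gated cells, a log2 ratio of -1.89, -2.12, -2.10 and -2.35. It was the only counted nuclear member lower past 1.5-fold in all 4 libraries in NK-gated cells (1 of 79, with 1 higher, beside 5.54% and 10.8% of all genes). B-gated cells had 1 higher and 0 lower of 80 nuclear members, beside 21.2% and 7.98%. The higher one was Cox6b2, an isoform known from testis, at 7.91, 6.46, 7.21 and 6.20 CPM in B-gated and 2.22, 1.85, 1.83 and 1.95 CPM in T-gated cells. Its high level was not particular to B-gated cells. NK-gated cells held 26 UMIs of Cox6b2, beside 137 in B-gated and 261 in T-gated cells. The NK-gated class held only 604149 to 822661 UMIs per library, beside 26639018 to 41509532 in T-gated cells. The 1 higher member of NK-gated cells was also grouped with complex IV. Of mitochondrial genes, Mt-nd6 (0.63 to 0.91) and Mt-co1 (0.64 to 0.75) were higher in B-gated cells.

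**Figure D4:**
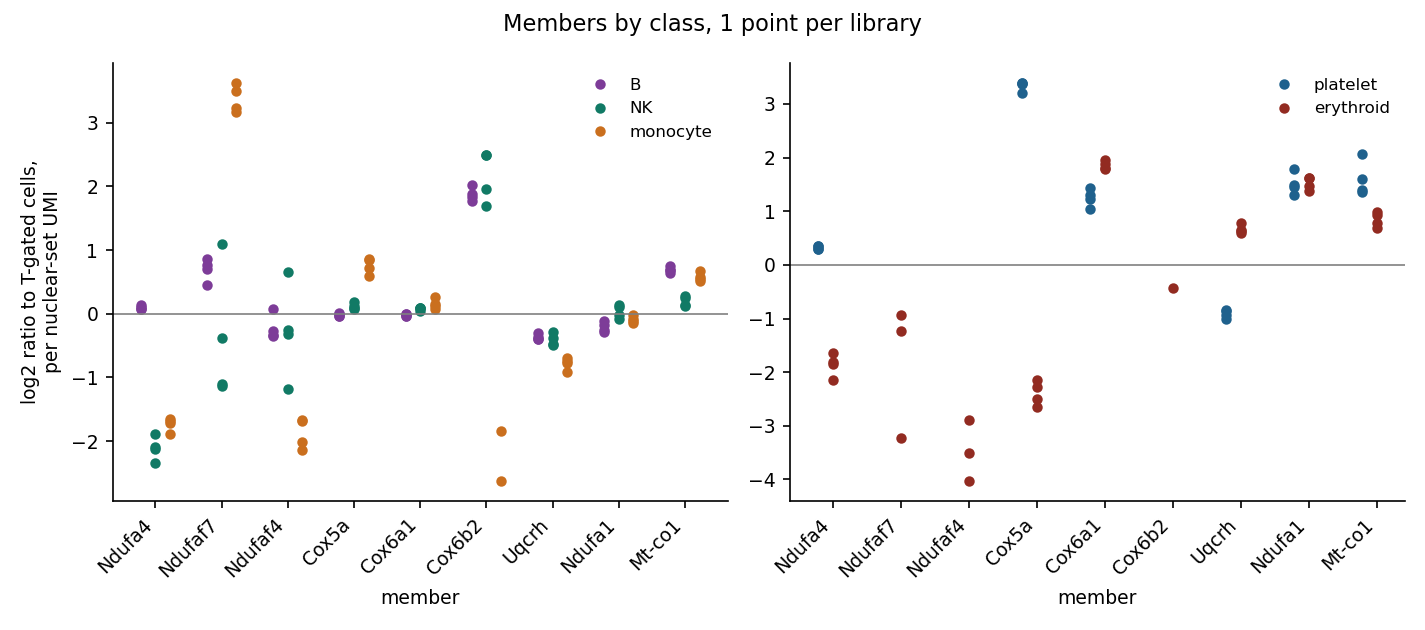
Log2 ratio to T-gated cells per nuclear-set UMI (vertical axis) of 9 members in each class, 1 point per library, with no point where a library held too few UMIs. Ndufaf7 in monocyte-gated cells (3.16 to 3.62), Cox5a in platelet-gated barcodes (3.20 to 3.39) and Ndufa4 in NK-gated cells (-2.35 to -1.89) lie far from 0 in all 4 libraries.

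Platelet-gated barcodes, which were few (88 to 167 per library) and shallow (median 665 to 689 UMIs), carried a high level of Cox5a. It stood at 3379, 2833, 2977 and 3490.0 CPM on 434, 220, 308 and 253 UMIs, a log2 ratio to T-gated cells of 3.39, 3.20, 3.39 and 3.38. Of 33 nuclear members with at least 10 UMIs in every library, 3 were higher and 6 lower, beside 58.4% and 22.1% of all genes. That minimum was set on platelet-gated UMIs, which favours higher calls, so these shares do not compare with those of the other classes. The other higher members were Cox6a1, a complex IV subunit (1.04 to 1.43), and Ndufa1, a complex I subunit (1.30 to 1.78). Mt-co1, the catalytic subunit of complex IV, was higher too (1.36 to 2.07). The mitochondrial set was low in SCI, at 46700, 29074, 56811 and 44680 CPM, a log2 ratio of SCI over Sham of -0.68 (-0.75 to -0.61). Mt-nd1 stood at 3013, 1571, 3731 and 3587 CPM. Barcodes with over 20% mitochondrial UMIs made 7.78%, 0%, 7.44% and 7.87% of the platelet class, and their part in that difference was not tested. The nuclear set was at 18060, 16481, 15696 and 16940 CPM. Between SCI and Sham 1 of 21 nuclear members was higher and 2 lower, beside 21.8% and 15.2% of all genes.

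Erythroid-gated barcodes, in which hemoglobin makes at least 50% of UMIs, held 2188, 1683, 1787 and 2115 CPM of the nuclear set and 1.13, 1.42, 1.30 and 1.09 mitochondrial UMIs per nuclear-set UMI. The nuclear set was low in both SCI and MSC-i.t, with log2 ratios to Sham of -0.38 and -0.29, beside -0.049 for MSC-i.v. Of 54 counted nuclear members 6 were higher and 30 lower in SCI than in Sham, beside 26.9% and 31.2% of all genes, with a median of -0.37 beside -0.07 for all genes. In MSC-i.t 15 of 49 were higher and 11 lower than in SCI, beside 19.6% and 33.9%, and in MSC-i.v 30 of 60 were higher and 6 lower than in SCI, beside 30.4% and 23.2%. Per nuclear-set UMI, 12 of 80 nuclear members were higher than in T-gated cells and 41 lower, beside 6.57% and 76.6% of all genes. Genes could be counted here through their UMIs in T-gated cells alone, which favours the lower direction for members and all genes. Subunits of 1 complex lay on opposite sides. Atp5b, the beta subunit of ATP synthase, was higher (1.27 to 1.62) and Atp5a1, the alpha subunit of the same catalytic head, lower (-3.01 to -2.68). In complex IV Cox6a1 (1.78 to 1.95), Cox7b (1.20 to 1.39), Cox8a (0.95 to 1.13) and Cox7a2 (0.96 to 1.19) were higher, and Cox5a (-2.65 to -2.15) and Ndufa4 (-2.15 to -1.63) lower. In complex I Ndufa12 (1.92 to 2.10) and Ndufa1 (1.37 to 1.62) were higher. Mt-co1 was the 1 higher mitochondrial gene (0.69 to 0.99), with 10 of 13 lower. The level of free RNA in these barcodes was not tested.

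Several isoforms known from other tissues were near or at 0, while Cox6b2 had 532 UMIs. In all kept barcodes Cox7a1, Cox7b2, Cox8b and Cox8c had 0 UMIs, as did the gene models Ndufb4l1 and Cox6c-ps1. A count of 0, taken as at most 3 counts, allows up to 0.113, 0.0868, 0.0723 and 0.0945 CPM in T-gated cells and 0.605, 1.94, 1.15 and 0.593 CPM in monocyte-gated cells. Cox4i2, an isoform known from lung, had 15 UMIs, beside 235404 of Cox4i1. Cox6a2, known from heart and muscle, had 23, of which 19 were in monocyte-gated cells, beside 98055 of Cox6a1. Ndufa4l2 had 5 UMIs. Atp5f1 had 18 UMIs and Ndufa13 had 30, though these are general subunits and not isoforms known from other tissues. Why these counts were low was not tested, so the levels of Atp5f1 and Ndufa13 are uncertain. The remaining 95 members had at least 50 UMIs each.

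Lists of neighbouring genes were read in the same way, beside 21.4% of all genes higher and 5.77% lower in SCI than in Sham in T-gated cells, and 35.7% and 14.9% in monocyte-gated cells. Complex II (Sdha to Sdhd), which holds no mitochondrial-encoded subunit, had none of 4 genes called between SCI and Sham in T-gated cells and 1 higher in monocyte-gated cells, with medians of 0.00 and -0.05. Of the tricarboxylic acid cycle list 0 of 11 were called in T-gated cells, and 0 were higher and 2 lower in monocyte-gated cells. The mitochondrial ribosome list had 3 of 72 higher and 1 lower in T-gated cells, and 4 of 69 higher and 8 lower in monocyte-gated cells. Glycolysis genes had 5 of 17 higher and 0 lower in T-gated, and 3 of 13 higher and 1 lower in monocyte-gated cells. Electron carriers and assembly genes had 1 of 14 higher and 2 lower in T-gated, and 1 of 11 higher and 4 lower in monocyte-gated cells. Genes for upkeep of mitochondrial DNA and RNA had 2 of 18 higher in T-gated, and 3 of 10 higher and 2 lower in monocyte-gated cells.

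Of the listed regulators, 2 of 9 were higher in SCI than in Sham in T-gated cells, a share near the 21.4% of all genes. In monocyte-gated cells 6 of 7 were higher, beside 35.7%, and none was lower in either class. Yy1 stood at 47.5, 89.2, 43.8 and 53.1 CPM in T-gated cells. Esrra, a nuclear receptor that acts on respiratory genes, stood at 6.12, 12.3, 5.85 and 5.80 CPM in T-gated and 22.4, 51.7, 24.1 and 25.9 CPM in monocyte-gated cells. Both were highest in SCI, with the other 3 libraries close together. Ppargc1a, the coactivator PGC-1 alpha, had 0 UMIs in both classes. Atpif1, the inhibitor of ATP synthase, stood at 269, 219.7, 249 and 254 CPM in T-gated cells and 431, 320.5, 411 and 358 CPM in monocyte-gated cells, log2 ratios of SCI over Sham of -0.29 and -0.43.

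The share of mitochondrial UMIs in single barcodes differed little at the centre in T-gated cells and more in monocyte-gated cells. The median in T-gated cells was 4.04%, 4.22%, 4.24% and 4.21%, and in monocyte-gated cells 3.44%, 4.14%, 3.37% and 3.57%, highest in SCI. T-gated cells under 1% mitochondrial made 2.80% (2.36 to 3.30), 2.70% (2.29 to 3.17), 2.18% (1.85 to 2.55) and 0.537% (0.389 to 0.723), lowest in MSC-i.v. With each cell thinned to 1000 UMIs, which left out 67, 53, 60 and 111 shallower cells, the shares were 2.80%, 2.49%, 2.12% and 0.494%. MSC-i.v had the lowest share at matched depth, though its T-gated cells had the lowest median depth, 3703 UMIs beside 5065, 5972 and 5651 in Sham, SCI and MSC-i.t.

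**Figure D5:**
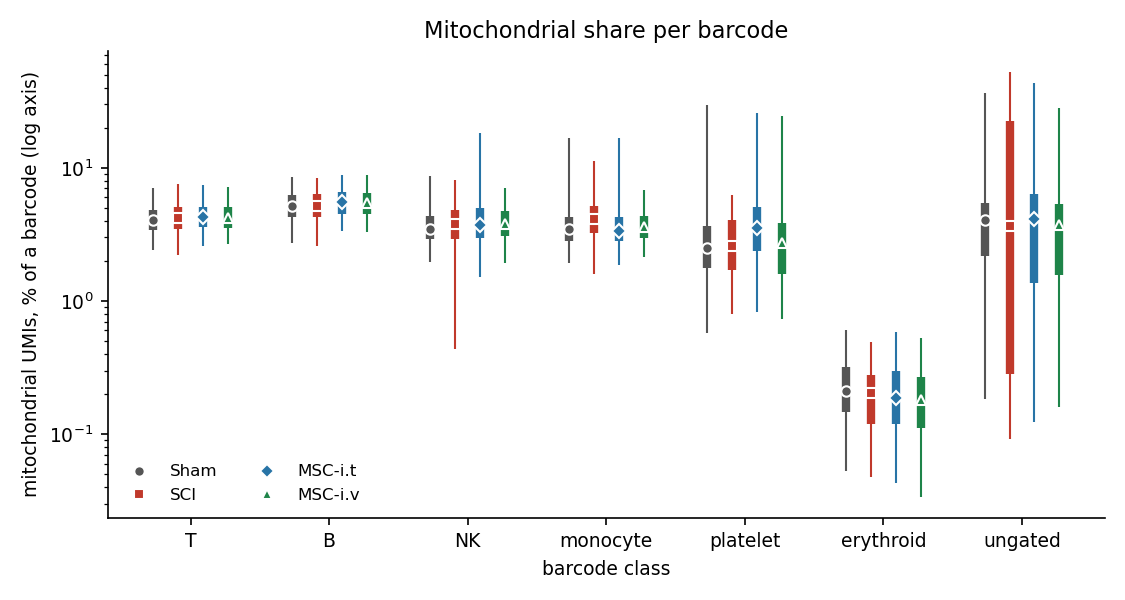
Mitochondrial percent of UMIs per barcode (log axis) by class and library; marker, median; thick line, 25th to 75th percentile; thin line, 5th to 95th percentile. T-gated medians lie between 4.04% and 4.24%, and the monocyte-gated median is highest in SCI (4.14%).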

How the data were processed

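Single-cell RNA of rat blood was measured in 4 libraries, 1 per group. The authors deposited raw UMI counts for all barcodes, made with Cell Ranger 4 per the file headers. The submitters' processing notes name the build mRatBN7.2, although some gene names belong to an older rat assembly. The aligner is not given in the sources used here, and the labels' extraction text describes a bulk poly(A) preparation that does not match these matrices. Libraries held 63133881 to 91124523 UMIs. The depth sets the counting intervals, which leave out variation between rats.

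From the counts, barcodes with at least 500 UMIs and 200 genes were kept and gated. T-gated barcodes had at least 2 UMIs of Cd3d, Cd3e and Cd3g, and other leukocyte classes had at least 3 UMIs of their markers (B: Cd79a, Cd79b and Ms4a1 among others; monocyte: Csf1r, Lyz2, Cd68 and Fcgr3a among others; NK: Nkg7, Gzma, Klrd1, Prf1, Ncr1, Klre1 with no Cd3 UMI). The other gate markers are not reported here. Barcodes passing a second leukocyte gate, or with 1% platelet or 10% hemoglobin UMIs, were left out of leukocyte classes. No doublet caller was run, and barcodes passing 2 leukocyte gates were left ungated. UMIs were summed per class and library and scaled to CPM, with exact Poisson intervals for levels and exact conditional intervals for ratios. A gene was counted with at least 50 UMIs over both libraries and called at a ratio of at most 0.8 or its inverse and above. Between classes it was counted with at least 50 UMIs over both classes in each library (for platelets, 10 platelet-gated UMIs) and called past 1.5-fold in all 4 libraries. The ratio intervals were tested on simulated data drawn with counting error alone, the error that they assume. Variation between cells, libraries or rats was not simulated.

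Named members were all mitochondrial genes, the 4 highest and 4 lowest nuclear log2 ratios per comparison in T-gated and monocyte-gated cells, and isoform pairs. The members and lists were chosen with earlier results of these data known. Chosen after values of this work were seen were some subunits that differed little, members called between classes, promoters shown, the monocyte split, Sham as a reference for treated libraries, and the minimum of 10 platelet UMIs. Alternatives tried were at most 20% mitochondrial UMIs, at least 1000 UMIs, a total without mitochondrial, hemoglobin and ribosomal protein genes, gates of at least 5 UMIs, means of cells' shares, leaving out barcodes under 1% mitochondrial or the top 5% of UMIs, 1.5-fold calls, and a minimum of 20 UMIs. Analyses used Python 3.11.15, numpy 2.4.6, scipy 1.17.1, pandas 2.3.3 and matplotlib 3.10.9.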

Additional observations from a re-analysis of the deposited data

Results flagged for a closer look

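The mitochondrial set differed in direction between blood cell classes, and none of these differences was tested. For SCI over Sham its log2 ratio was -0.68 in platelet-gated and -0.055 in erythroid-gated barcodes, against 0.062 in T-gated cells. For MSC-i.t over SCI it was -0.20 in monocyte-gated cells, against 0.0077 in T-gated cells. For MSC-i.v over SCI it was -0.038 in NK-gated cells, -0.23 in monocyte-gated cells and -0.045 in erythroid-gated barcodes, against 0.011 in T-gated cells, and these small values changed sign under some settings. With mitochondrial, hemoglobin and ribosomal protein genes left out of the total, the NK-gated ratio was 0.035 and the erythroid-gated ratio 0.0012.

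Ungated barcodes, which entered no comparison, carried more mitochondrial UMIs per nuclear-set UMI than in Sham (2.37). SCI had 4.09, the intrathecal library 2.78 and the intravenous library 2.51. Barcodes with over 20% mitochondrial UMIs made 25.7% of the ungated barcodes in SCI and 15.8% in MSC-i.t, above 9.22% in Sham, and 6.87% in MSC-i.v.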

How the results depend on the processing

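The main limit is 1 library per group. Of the values recomputed, 57 stayed within counting error or 1.5 times the count, 73 moved and 2 reversed. No paired analysis was possible because the groups share only replicate number 1.

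In T-gated cells the nuclear log2 ratio of SCI over Sham (-0.16) became -0.20 with the reduced total, -0.155 as a mean of cells' shares and -0.15 without the top 5% of UMIs. The mitochondrial ratio (0.062) became 0.073 (at most 20% mitochondrial), 0.067 (at least 1000 UMIs), 0.023 (reduced total), 0.069 (gates of 5), 0.039 (shares), 0.059 (without barcodes under 1%) and 0.058 (without the top 5%). For MSC-i.t over SCI the reduced total gave 0.18 (nuclear) and 0.067 (mitochondrial, otherwise 0.0077), and the mitochondrial ratio was 0.015 by shares, 0.0046 without barcodes under 1% and 0.013 without the top 5%. For MSC-i.v over SCI the nuclear ratio was 0.175 (reduced total) and 0.11 (without the top 5%). The mitochondrial ratio (0.011) was reversed by shares (-0.032) and without barcodes under 1% (-0.016), and was otherwise 0.014, 0.0071, 0.070 (reduced total) and 0.017. At 1.5-fold, 0 nuclear members were called in T-gated cells in any of these comparisons, and with 20 UMIs 2 were lower for MSC-i.t over SCI.

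In monocyte-gated cells (alternatives chosen after seeing the data) SCI over Sham gave -0.33 (reduced total) and -0.23 (shares) for the nuclear set, and 0.21 (reduced total), 0.137 (shares) and 0.245 (without the top 5%) for the mitochondrial set. At 1.5-fold 5 were lower, and with 20 UMIs 1 was higher. For MSC-i.t over SCI the values were 0.28 (nuclear, reduced total) and -0.24, -0.18, -0.15 and -0.116 (mitochondrial, at most 20%, at least 1000 UMIs, reduced total, shares), with 2 higher and 0 lower at 1.5-fold and 4 lower with 20 UMIs. For MSC-i.v over SCI they were 0.25 and -0.20, -0.17, -0.34 and -0.25 (at most 20%, reduced total, shares, without barcodes under 1%), with 2 higher and 0 lower at 1.5-fold.

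The T-gated mitochondrial UMIs per nuclear-set UMI (order as above: Sham, SCI, intrathecal, intravenous) were 2.01, 2.37, 2.19 and 2.21 with at most 20% mitochondrial, 2.04, 2.39, 2.21 and 2.22 with at least 1000 UMIs, 2.01, 2.36, 2.19 and 2.19 with gates of 5, 2.31, 2.64, 2.46 and 2.39 by shares, 2.11, 2.47, 2.28 and 2.25 without barcodes under 1%, and 2.08, 2.40, 2.24 and 2.26 without the top 5%. Sham was the lowest and SCI the highest library under each. The cause of these shifts was not tested.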
